A study of Mus musculus with 13 samples.

Results

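RNA of mouse retina labelled tip was set against RNA labelled as a nonvascular retina control, to ask which genes are higher or lower in the sprouting front of the retinal vessels than in retina without vessels. The comparison took every array with 1 of these 2 labels, which were 9 of the 13 arrays of the series (6 tip, 3 nonvascular), and all 41174 non-control probes. The other 4 arrays hold RNA labelled stalk, the part of a sprout behind its tip, and their values are given only beside some tip values. On each array the sample RNA carried Cy5 and was hybridised with Universal Mouse Reference RNA, a commercial pool, in Cy3, so all groups share that reference. Total RNA was prepared with a PicoPure kit for small inputs and amplified linearly in every group. Age, strain, genotype and the way the cells were collected are not given in the sources used here, nor are the animals behind each replicate, so p-values measure the spread between these samples, which may be technical. A value below is a log2 ratio of sample to reference, and a difference is the mean of the 6 tip values minus the mean of the 3 nonvascular values. Levels on this scale cannot be compared between genes, because the reference holds a different amount of each transcript.

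The retinal vasculature of the mouse spreads over the inner surface of the retina after birth, guided by a network of astrocytes. Tip cells lead each sprout: they extend filopodia towards vascular endothelial growth factor, migrate, and signal through Dll4 to Notch in the stalk cells behind them. Pericytes, astrocytes, ganglion cell axons and microglia lie within reach of every tip, whereas nonvascular retina holds neurons, glia and progenitors.

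Tip and nonvascular RNA differed widely. Of the 41174 probes, 4188 were called higher in tip (10.2% of those tested) and 6201 lower (15.1%), where called means an adjusted p under 0.05 in limma's moderated test with Benjamini-Hochberg adjustment over all probes. Differences of 2-fold or more were called for 1225 probes on the higher side and 1800 on the lower side. With 1 probe kept for each of the 16791 genes with a symbol, 2467 genes were higher (14.7%) and 3270 lower (19.5%), and the median difference over all genes was -0.01. By size, 222 genes were at least 4-fold higher and 227 at least 4-fold lower, while 14 were at least 16-fold higher and 0 at least 16-fold lower. The balance of the calls depended on the scaling: with median centring of each array in place of loess, 2177 probes were higher and 5700 lower, so 27.6% of the calls were on the higher side against 40.3%. In bulk RNA, fewer cells of a type and less RNA per cell cannot be told apart, and this holds for every gene below.

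The arrays themselves separated by label. Pearson's r over all probes was 0.944 to 0.971 between tip arrays, 0.953 to 0.976 between nonvascular arrays, and 0.732 to 0.850 between the groups, and 86.9% to 95.3% of probes were well above background in the sample channel. Nonvascular replicate 3 stood nearer to tip than its partners did (r 0.817 to 0.850, against 0.732 to 0.771 and 0.740 to 0.778). It was the nonvascular array nearest to tip for 614 genes of those higher by 2-fold or more, against 83 and 137 for replicates 1 and 2. Among genes lower by 2-fold or more, the numbers were 701 for replicate 3 against 233 and 72. Many results in which replicate 3 decides a call or moves a value strongly are given below with and without it, but not every value that moves. Each array has its own slide. The groups were scanned 1 after the other, so effects of scan order and of group cannot be told apart. Tip replicate 5 was scanned a day after the rest, and the calls without it are among the values given for single arrays left out.

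**Figure D1:**
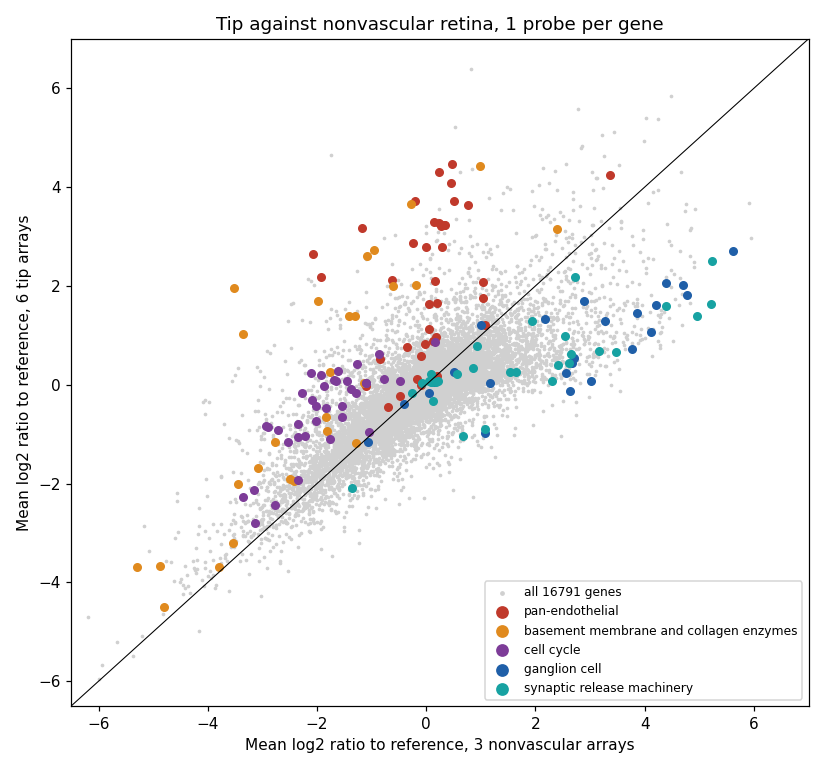
Mean log2 ratio to the reference of each of 16791 genes on the 6 tip arrays (vertical axis) against the 3 nonvascular arrays (horizontal axis), with 5 gene lists in colour and a line of equality. Most pan-endothelial, basement membrane and cell cycle genes lie above the line, and most ganglion cell and synaptic release genes lie below it.

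Genes of vessel lining cells are described first, in a list chosen with earlier results of these data known. Of 38 measured pan-endothelial genes, which mark vessel lining cells of any kind, 34 were higher in tip and 0 lower, beside 14.7% and 19.5% of all genes. The median difference of the list was 1.76, and 2.89 with the Feature Extraction or deposited ratios, 2.78 with the sample channel alone and 2.64 with median centring. The mean log2 ratio of the list ran from 1.96 to 2.22 on the tip arrays and was -0.07, 0.06 and 0.12 on nonvascular replicates 1, 2 and 3. On the stalk arrays it was higher than in tip, at 2.32 to 2.43, so high values of the list are not particular to tip. All 38 genes were well above background on at least 1 nonvascular array, so the control RNA was not free of signal for them. Clec14a, Lyl1, Podxl and Tek were the 4 members that did not pass the test, with differences of 0.15, 0.26, 0.09 and -0.02. Against stalk, 1 member was higher in tip and 8 were lower, beside 3.56% of all genes called either way. The higher one was Vwf (1.00), the von Willebrand factor of endothelial storage granules.

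Cd34, a sialomucin of endothelial and progenitor cells, ran from 2.19 to 2.86 in tip (median 2.70) and read -2.43, -2.02 and -1.79 on the nonvascular arrays. Its mean was 2.65 ± 0.24 (SD, n = 6) in tip and -2.08 ± 0.32 (SD, n = 3) in nonvascular retina, a difference of 4.73 (SE 0.16, adjusted p = 2.01e-07), or 26.6-fold. Every tip array lay above every nonvascular array, and the same was true of each gene in the next 3 paragraphs unless stated. Icam2, an adhesion molecule at endothelial junctions, ran from 2.91 to 3.39 in tip (median 3.16) against -1.47, -1.11 and -0.98, a difference of 4.35 (SE 0.13, adjusted p = 1.1e-07). Flt1, a receptor that binds vascular endothelial growth factor A tightly, ran from 1.91 to 2.34 in tip (median 2.20) against -1.78, -2.29 and -1.71, a difference of 4.11 (SE 0.13, adjusted p = 1.21e-07). Its second probe gave 3.81.

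Cdh5, the cadherin of endothelial adherens junctions, ran from 3.58 to 4.58 in tip (median 4.12) against 0.32, 0.34 and 0.67, a difference of 3.63 (SE 0.18, adjusted p = 8.93e-07), and a second, dimmer probe gave 0.56. The transcription factor gene Sox7 had the tightest tip values of these genes, 3.62 to 3.82 in tip (median 3.70), against -0.51, -0.18 and 0.05, a difference of 3.92 (SE 0.11, adjusted p = 4.53e-08). Egfl7, a secreted endothelial factor, differed by 2.91 (SE 0.08, adjusted p = 4.53e-08). The endoglin gene Eng, a co-receptor for TGF-beta and BMP ligands, ran from 1.77 to 2.44 in tip (median 2.18) against -0.76, -0.62 and -0.51, a difference of 2.76 (SE 0.14, adjusted p = 8.93e-07).

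Some classical endothelial genes moved little on the probes used here. Pecam1, an adhesion molecule used to stain vessels, ran from -0.07 to 0.23 in tip (median 0.15) against -0.14, -0.26 and -0.09, a difference of 0.27 (SE 0.07, adjusted p = 0.0198), and its call was lost without nonvascular replicate 1 or replicate 2 (adjusted p = 0.0539 and 0.1). Tek, the receptor for angiopoietins, ran from 0.06 to 0.42 in tip (median 0.14) against 0.23, 0.20 and 0.19, a difference of -0.02 (SE 0.08, adjusted p = 0.878), with overlapping groups. The Pecam1 and Tek probes read near the reference in both groups, so they can hide a change that another probe would show. Kdr, the main signalling receptor for vascular endothelial growth factor A, was measured in tip at 4.00 to 4.52 (median 4.26). The nonvascular values of Kdr were 2.92, 2.97 and 4.20, so that only replicate 3 reached the tip range. The Kdr difference was 0.89 (SE 0.26, adjusted p = 0.0285) over all 9 arrays and 1.31 (adjusted p = 6.63e-05) without nonvascular replicate 3. It lost its call without nonvascular replicate 1 or 2, or without tip replicate 2, 5 or 6 (adjusted p up to 0.247 over all alternatives).

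The largest differences on the higher side were those of Esm1, Prnd and Nid1. Esm1 encodes endocan, a proteoglycan secreted by activated endothelium and used as a tip cell marker. It ran from 4.29 to 5.10 in tip (median 4.63) and read -1.92, -1.58 and -1.72 on the nonvascular arrays. The means were 4.64 ± 0.27 (SD, n = 6) in tip and -1.74 ± 0.17 (SD, n = 3) in nonvascular retina, a difference of 6.38 (SE 0.15, adjusted p = 2.58e-08), which is 83.4-fold. The stalk mean of Esm1 was 1.78 (SD 0.32, n = 4), and tip exceeded stalk by 2.87 (adjusted p = 3.21e-06) in the fit over all 13 arrays, so stalk RNA lay between nonvascular and tip RNA. Prnd, which encodes doppel, a relative of the prion protein, ran from 5.99 to 6.70 in tip (median 6.50) against 0.42, 0.81 and 1.24, a difference of 5.56 (SE 0.20, adjusted p = 2.11e-07). For Prnd the stalk mean was 5.96, and tip minus stalk was 0.42 (adjusted p = 0.295).

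Nid1 encodes nidogen 1, which links laminin to type IV collagen in basement membranes. It ran from 1.78 to 2.16 in tip (median 1.95) and read -4.24, -3.66 and -2.63 on nonvascular replicates 1 to 3, a difference of 5.47 (SE 0.27, adjusted p = 8.72e-07). The nonvascular values were spread over a wide range, with replicate 3 highest, and the difference was 5.91 without it. The other genes among the 12 largest were Cd34, Cd93, Nid2, Icam2, Pdgfrb, Mgp, Ctla2a, Ppic and Flt1. Cd93, an endothelial lectin-like receptor, ran from 4.08 to 5.96 in tip (median 5.30) against 0.02, 0.72 and 0.81, a difference of 4.71 (SE 0.36, adjusted p = 8.96e-06), while its second probe gave 0.75. Cd34 and Cd93 were saturated on 1 tip array each, as was Pdgfra, described below. Mgp, a matrix protein that inhibits calcification, differed by 4.22 (SE 0.25, adjusted p = 2.13e-06), and Ctla2a, a cysteine protease inhibitor, by 4.11 (SE 0.13, adjusted p = 1.21e-07). Ppic, a cyclophilin, ran from 1.44 to 1.86 in tip (median 1.71) against -2.92, -3.29 and -1.13. Nonvascular replicate 3 was again the highest of its group for Ppic, and the difference of 4.11 became 4.77 without it.

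The promoters of 4 of the genes with the largest differences are shown to set the regulatory sequence beside the values, 2 of each direction whose gene has a single listed start. Each is the 250 bases before the RefSeq start on the gene's strand, 5′ to 3′, from the mouse build GRCm38.p6, and the build of the array's own probe coordinates was not used. Capitals mark matches on either strand to CAGGAAG (an ETS site), TAATCC (a Crx and Otx site), CAGCTG (an E-box of neural bHLH factors) or ACGTG (the core of the hypoxia response element). Esm1 lies at chr13:113209409-113209658 and Nid1 at chr13:13437352-13437601, both on the + strand and both higher in tip. Slc32a1 lies at chr2:158610508-158610757 and Ina at chr19:47014431-47014680, both on the + strand and both lower in tip.
Esm1: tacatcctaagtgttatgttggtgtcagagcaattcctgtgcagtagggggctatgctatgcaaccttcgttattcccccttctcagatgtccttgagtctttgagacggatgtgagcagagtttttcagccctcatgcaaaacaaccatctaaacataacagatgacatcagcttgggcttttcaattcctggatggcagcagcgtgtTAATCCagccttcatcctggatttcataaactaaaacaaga
Nid1: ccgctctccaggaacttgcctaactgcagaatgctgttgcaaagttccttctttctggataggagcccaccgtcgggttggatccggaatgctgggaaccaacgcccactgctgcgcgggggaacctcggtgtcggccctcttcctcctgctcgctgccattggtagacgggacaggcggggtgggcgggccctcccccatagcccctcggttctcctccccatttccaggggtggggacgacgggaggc
Slc32a1: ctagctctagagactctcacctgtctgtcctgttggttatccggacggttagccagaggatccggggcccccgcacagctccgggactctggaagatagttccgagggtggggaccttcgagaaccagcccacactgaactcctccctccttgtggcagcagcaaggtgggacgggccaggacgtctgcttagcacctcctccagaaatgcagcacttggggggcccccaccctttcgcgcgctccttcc
Ina: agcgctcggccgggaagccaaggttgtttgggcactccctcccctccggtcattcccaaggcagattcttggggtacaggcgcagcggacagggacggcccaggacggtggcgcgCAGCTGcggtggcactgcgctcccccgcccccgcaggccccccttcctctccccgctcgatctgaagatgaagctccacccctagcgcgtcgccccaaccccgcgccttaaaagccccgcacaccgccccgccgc
One TAATCC match stood in the Esm1 window and one CAGCTG match in the Ina window, and the other windows held none of the 4 words. Over 300-base windows that reach 50 bases past the start, CAGGAAG was present for 13.8% of 513 genes higher by 2-fold or more, 9.41% of 563 genes lower by 2-fold or more and 12.3% of all 10918 tested genes with a single start. The shares for CAGCTG were 17.9%, 16.9% and 15.1%, those for TAATCC 5.46%, 5.51% and 6.55%, and those for ACGTG 22.8%, 21.8% and 22.0%. The median GC content of the windows was 62.3%, 62.7% and 57.7% in the same order. A match is a description of letters, and these shares carry no test.

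Genes listed as tip cell markers were higher in tip as a group. Of 24 measured, 19 were higher than in nonvascular retina and 1 lower, with a median difference of 1.89. The lower count was 2 without nonvascular replicate 3. Several members of the list (Tesc, Lxn, Trp53i11 and others) come from earlier analyses of these same samples, so the count is not independent evidence of its direction. Against stalk, 14 of the 24 were higher in tip and 0 lower, a count that is not independent evidence for the same reason. The secreted factors and receptors of the list are described first.

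Angpt2, an angiopoietin released by sprouting endothelium that loosens vessel contacts, ran from 3.25 to 3.74 in tip (median 3.61) against -0.21, -0.46 and 1.38, a difference of 3.32 (SE 0.34, adjusted p = 6.1e-05). Nonvascular replicate 3 was the high value of its group, and without it the difference was 3.89. Angpt2 exceeded stalk by 1.82 (adjusted p = 0.00719). Adm encodes adrenomedullin, a peptide that acts on endothelium through Calcrl and a Ramp protein. It ran from 0.76 to 1.38 in tip (median 1.16) against -1.98, -2.19 and -0.54, with replicate 3 again highest, a difference of 2.71 (SE 0.32, adjusted p = 0.000143) and of 3.22 without that array. Tip minus stalk for Adm was 1.78 (adjusted p = 0.00651).

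Cxcr4, a chemokine receptor, ran from 1.59 to 1.95 in tip (median 1.82) against -0.40, -0.85 and 0.20, a difference of 2.13 (SE 0.19, adjusted p = 2.28e-05). The stalk mean of Cxcr4 was 0.31, and tip minus stalk was 1.47 (adjusted p = 0.00325). A second Cxcr4 probe gave a difference of 0.15, so the size rests on the brighter probe. Its ligand gene Cxcl12 was higher in tip too, at 0.88 to 1.44 (median 1.08) against -2.92, -2.35 and -0.11, a difference of 2.93 (SE 0.49, adjusted p = 0.00151). Replicate 3 of the nonvascular arrays lay far above its partners for Cxcl12, and the difference without it was 3.77. A second Cxcl12 probe gave 0.72. Tip did not pass the test against stalk for Cxcl12, with -0.35 (adjusted p = 0.71).

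Apln encodes apelin, a peptide ligand released by tip cells. Its brightest probe ran from 1.73 to 2.34 in tip (median 2.08) against 0.06, 0.08 and 0.13, a difference of 1.97 (SE 0.13, adjusted p = 3.94e-06). Other Apln probes gave 3.57 and 0.07. The receptor gene Aplnr, typical of veins and stalk cells, differed from nonvascular retina by 0.77 (SE 0.07, adjusted p = 2.8e-05) and from stalk by -0.83 (adjusted p = 7.27e-05). A second Aplnr probe gave -0.05. Ligand and receptor were both above the nonvascular arrays, whereas Apln exceeded stalk by 0.89 (adjusted p = 0.00221). Dll4, the Notch ligand of tip cells, ran from 0.42 to 0.72 in tip (median 0.60) against 0.03, -0.03 and 0.07, a small difference of 0.58 (SE 0.07, adjusted p = 0.000179) that was also above stalk by 0.41 (adjusted p = 0.00791). Jag1, a competing Notch ligand of stalk cells, ran from 0.12 to 0.39 in tip (median 0.26) against -1.89, -1.56 and -1.92, a difference of 2.04 (SE 0.09, adjusted p = 5.36e-07), and was lower than in stalk, with a tip minus stalk value of -1.07 (adjusted p = 0.000314). The second Jag1 probe differed by 0.01. Mfng, a glycosyltransferase that tunes Notch to Delta ligands, differed by 1.89 (SE 0.11, adjusted p = 1.92e-06).

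Pdgfb, the platelet-derived growth factor by which tip cells recruit pericytes, ran from 2.65 to 3.17 in tip (median 2.88) against 0.08, 0.31 and 0.17, a difference of 2.72 (SE 0.12, adjusted p = 4.55e-07). A second probe gave 0.04. Nid2, nidogen 2, ran from 0.86 to 1.38 in tip (median 0.98) against -3.42, -3.15 and -3.50, a difference of 4.39 (SE 0.13, adjusted p = 6.94e-08), and exceeded stalk by 0.65 (adjusted p = 0.0164). Vegfa, the growth factor that tip cells follow, was itself higher in tip RNA: 0.97 to 1.61 (median 1.13) against -2.35, -2.06 and -0.34. Its difference was 2.80 (SE 0.38, adjusted p = 0.000356) and 3.42 without nonvascular replicate 3, and its other probes gave 0.72 and 1.80. Tip minus stalk for Vegfa was 1.07 (adjusted p = 0.09). Of the list, Ramp3, a partner protein of the adrenomedullin receptor, was the member lower in tip, at 0.04 to 0.35 (median 0.10) against 2.36, 2.55 and 2.15, a difference of -2.23 (SE 0.10, adjusted p = 4.72e-07). Fscn1, Nrp1, Igfbp3 and Flt4 did not pass the test, with differences of 0.16, 0.05, -0.10 and -0.15.

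**Figure D2:**
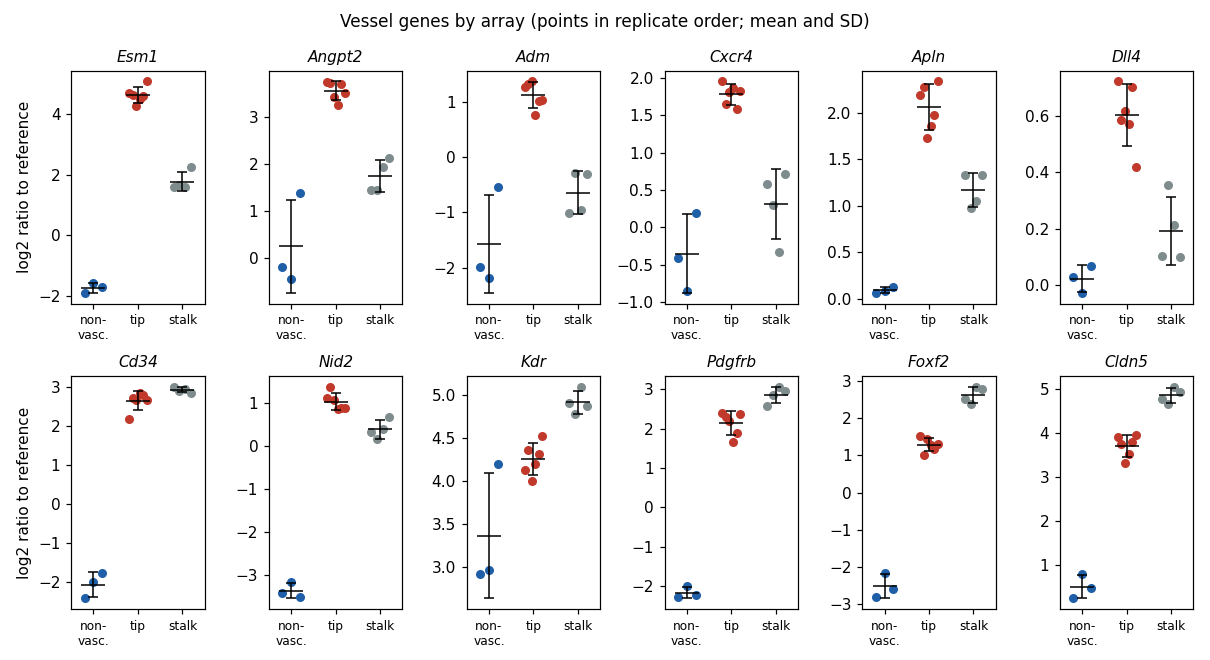
Log2 ratio to the reference on every array for 12 vessel genes, with the group mean and SD (3 nonvascular, 6 tip, 4 stalk arrays; vertical scales differ between panels). Esm1, Angpt2, Adm, Cxcr4, Apln, Dll4 and Nid2 have their highest mean in tip, and Cd34, Foxf2, Cldn5, Pdgfrb and Kdr have it in stalk.

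Over all angiogenic ligands, 11 of 26 were higher in tip and 5 lower, with a median of 0.35. Tgfb1, a cytokine that acts on endothelium and mural cells, differed by 1.29 (SE 0.08, adjusted p = 2.79e-06). The 5 lower ligands, a share near the 19.5% of all genes, were Vegfb (-0.30), Ndp (-0.69), Sema3a (-1.07), Pdgfa (-1.13) and Sema3e (-1.35). They include norrin (Ndp), which retinal glia make for vessels, and Pdgfa, which retinal neurons make for astrocytes. Over receptors of such ligands, 23 of 34 were higher and 2 lower, with a median of 0.85. Robo4, an endothelial guidance receptor, ran from 3.03 to 3.58 in tip (median 3.25) against -0.00, 0.21 and 0.21, a difference of 3.15 (SE 0.11, adjusted p = 2.01e-07). Tgfbr2, the type II receptor for TGF-beta, ran from -0.69 to -0.17 in tip (median -0.40) against -2.78, -2.57 and -2.66, a difference of 2.24 (SE 0.12, adjusted p = 1.37e-06), with 0.04 on a second probe. The 2 lower receptor genes were Ramp3 and its relative Ramp1 (-0.21), and the lower count was 1 without any 1 of nonvascular replicates 1 and 2 and tip replicates 2 to 5.

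TGF-beta and BMP signalling genes followed the receptors: 15 of 29 were higher and 2 lower, median 0.52. Eng, Tgfbr2 and Tgfb1 had the smallest p-values among them. The lower members were Bmp6 (-0.21) and Smad2 (-0.54), but neither was called without nonvascular replicate 1 or without replicate 3, where the count was 0. The type I receptor gene Acvrl1 did not pass the test (0.01).

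Genes of the blood-retina barrier were in part higher in tip than in nonvascular retina and in part lower than in stalk. Of 24 measured, 12 were higher and 0 lower than in nonvascular retina, with a median of 0.52. Against stalk, 0 were higher in tip and 12 lower. Foxf2, a forkhead factor of brain and retinal vessels and their pericytes, ran from 1.01 to 1.52 in tip (median 1.29) against -2.80, -2.16 and -2.60, a difference of 3.81 (SE 0.14, adjusted p = 2.51e-07), and its tip minus stalk value was -1.34 (adjusted p = 0.000273). Cldn5, the main claudin of endothelial tight junctions, ran from 3.32 to 3.96 in tip (median 3.78) against 0.26, 0.79 and 0.48, a difference of 3.20 (SE 0.16, adjusted p = 7.39e-07), with a tip minus stalk value of -1.16 (adjusted p = 0.000911). Slc7a5, a carrier of large neutral amino acids, differed by 1.20 (SE 0.15, adjusted p = 0.000245). The order nonvascular, tip, stalk held for the means of all 3 genes.

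Arterial and venous genes were higher in part. Of 16 measured, 9 were higher in tip than in nonvascular retina and 0 lower, with a median of 0.51, and 6 were lower in tip than in stalk. Hey1, a Notch target of arteries, ran from 1.78 to 2.24 in tip (median 1.94) against 0.99, 0.66 and 1.03, a difference of 1.07 (SE 0.12, adjusted p = 0.000118). Neither Efnb2, an arterial ephrin, nor Nr2f2, a venous receptor, passed the test, with differences of 0.14 and 0.36.

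Pericyte and smooth muscle genes were mostly higher in the tip samples. Of 24 measured, 18 were higher and 1 lower, with a median of 0.61. The mean ratio of the list ran from 0.74 to 0.96 on the tip arrays and was -0.40, -0.37 and -0.30 on the nonvascular arrays. Pdgfrb, the receptor through which pericytes answer Pdgfb, ran from 1.65 to 2.40 in tip (median 2.25) against -2.27, -1.99 and -2.22, a difference of 4.30 (SE 0.17, adjusted p = 2.77e-07), with a tip minus stalk value of -0.72 (adjusted p = 0.0262). Foxc1, a forkhead factor of mural and mesenchymal cells, ran from -0.72 to -0.44 in tip (median -0.59) against -4.30, -3.90 and -3.96, a difference of 3.46 (SE 0.10, adjusted p = 5.25e-08). Mcam, an adhesion molecule of pericytes and endothelium, differed by 3.51 (SE 0.15, adjusted p = 4.54e-07), with -0.01 on a second probe. Against stalk, 0 members were higher in tip and 11 lower. How much mural RNA bears on the vessel genes was not tested.

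Rgs5, a regulator of G protein signalling in pericytes, ran from 0.48 to 1.26 in tip (median 0.79) against 0.21, 0.37 and 0.17, a difference of 0.61 (SE 0.17, adjusted p = 0.0249). The call was lost when any 1 nonvascular array was left out, with adjusted p of 0.0849, 0.0518 and 0.0826 without replicates 1, 2 and 3. The contractile genes Acta2 and Tagln were higher by 0.63 and 0.61, whereas Myh11 of mature smooth muscle did not pass the test (-0.06). The lower member was Rgs4 (-1.21), which neurons express too.

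Basement membrane and collagen enzyme genes held some of the largest differences. Of 27 measured, 21 were higher in tip and 0 lower, and the median was 1.61. Against stalk, 4 were higher (Lamb1, Nid2, Col15a1 and P4ha1, by 0.49 to 0.93) and 1 lower (Tgfbi, -1.16). Col4a1, a chain of type IV collagen, ran from 3.41 to 4.15 in tip (median 3.55) against -0.57, -0.02 and -0.23, a difference of 3.93 (SE 0.17, adjusted p = 5.03e-07), with 2.84 on a second probe and a tip minus stalk value of 0.18 (adjusted p = 0.584). Tgfbi, a matrix protein induced by TGF-beta, ran from 1.13 to 1.69 in tip (median 1.39) against -1.29, -1.22 and -1.41, a difference of 2.69 (SE 0.11, adjusted p = 4.13e-07). The interstitial collagen gene Col1a2 and the fibronectin gene Fn1 did not pass the test, with 0.31 and 0.34.

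Caveolar genes were higher without exception among those measured, 8 of 8, with a median of 1.50. Cavin1, a coat protein of caveolae, ran from -0.51 to -0.24 in tip (median -0.35) against -4.11, -4.05 and -4.08, a difference of 3.73 (SE 0.06, adjusted p = 4.53e-09). Its other 3 probes gave 0.40, 0.05 and 0.07, so this size too rests on the brightest probe. Cav1, the caveolin of endothelium, ran from -0.68 to -0.03 in tip (median -0.29) against -3.94, -4.09 and -3.88, a difference of 3.62 (SE 0.15, adjusted p = 4e-07), with 0.12 on a second probe. Cavin3 differed by 2.90 (SE 0.09, adjusted p = 1.21e-07). For none of the 3 genes did tip against stalk pass the test, with tip minus stalk values of -0.03, -0.12 and 0.08.

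Probes of 1 gene often disagreed in size. Among the 111 genes chosen for naming, 36 had 46 further probes. Of the 45 that belong to genes called by their brightest probe, 18 were called the same way, 27 were not called and 0 were called the other way.

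Proteases and their inhibitors were higher for 14 of 25 genes and lower for 1, median 0.39. Timp3, a matrix-bound inhibitor of metalloproteinases, ran from -0.81 to -0.29 in tip (median -0.50) against -3.01, -3.17 and -3.06, a difference of 2.54 (SE 0.12, adjusted p = 5.77e-07). Timp1, a secreted relative, ran from -2.10 to -1.59 in tip (median -1.84) against -3.72, -3.80 and -3.74, a difference of 1.90 (SE 0.13, adjusted p = 3.98e-06), with 0.80 and 0.48 on other probes. Adamts1, a protease that cleaves proteoglycans, differed by 1.02 (SE 0.09, adjusted p = 1.89e-05), with 0.17 on a second probe. The lower member was the inhibitor gene Timp2 (-0.51), whose call was lost without nonvascular replicate 1. The gelatinase genes Mmp2 and Mmp9 did not pass the test, with 0.28 and 0.11.

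**Figure D3:**
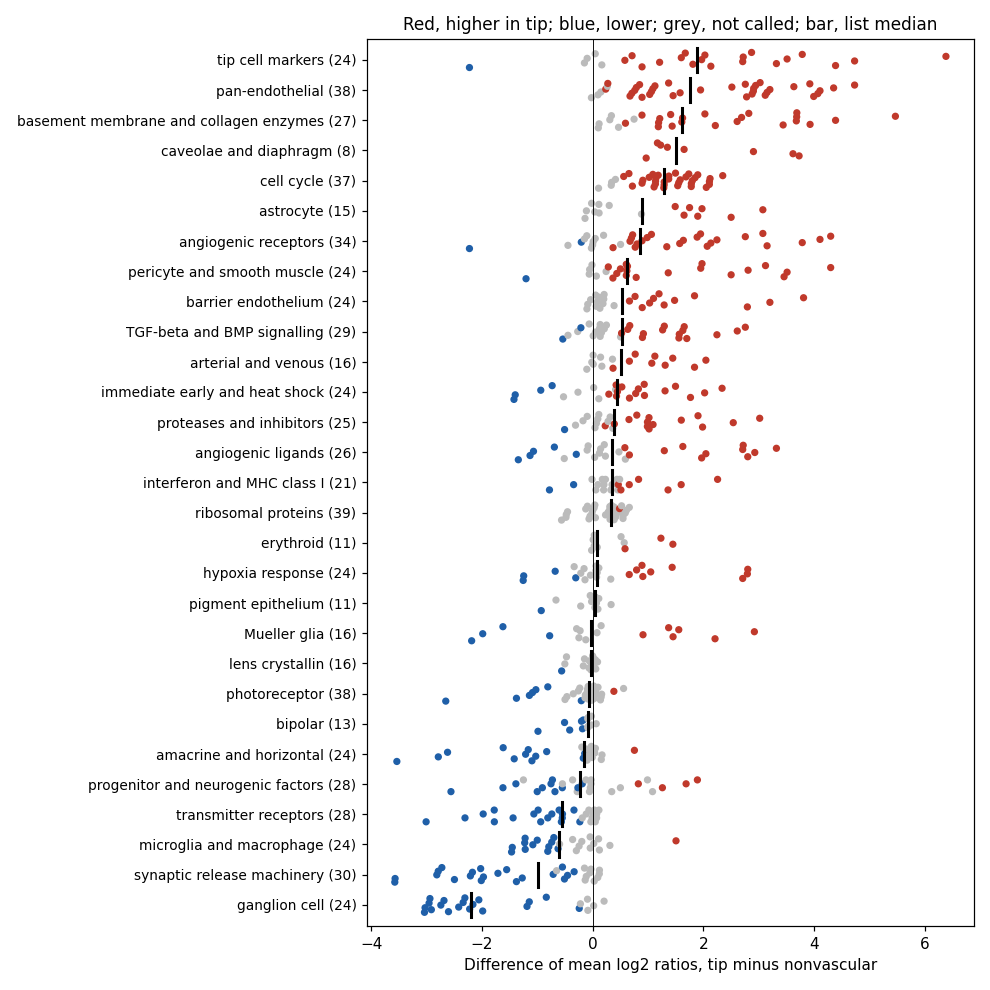
Difference between tip and nonvascular means for every measured gene of 29 lists (number measured in parentheses), 1 point per gene, ordered by the list median (black bar). Tip cell markers (1.89) and pan-endothelial genes (1.76) have the highest medians, whose order turned under 6 of the alternatives (median centring, Feature Extraction or deposited ratios, sample channel alone, replicate block, probe averaging), and ganglion cell genes the lowest (-2.19).

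Genes of cell division were higher in the tip samples. Of 37 cell cycle genes measured, 33 were higher in tip and 0 lower, with a median of 1.29. The median was 1.53 without nonvascular replicate 3 and 1.07 without replicate 2. The mean ratio of the list ran from -0.64 to -0.47 in tip and was -1.89, -2.28 and -1.46 on nonvascular replicates 1 to 3. Foxm1, a transcription factor of mitotic genes, ran from -0.12 to 0.11 in tip (median 0.06) against -1.10, -1.38 and -0.82, a difference of 1.13 (SE 0.11, adjusted p = 3.51e-05). Mcm6, a subunit of the replicative helicase, ran from -0.51 to -0.14 in tip (median -0.34) against -2.24, -2.49 and -1.56, a difference of 1.78 (SE 0.17, adjusted p = 4.31e-05). Kif20a, a kinesin of cytokinesis, ran from -0.61 to 0.11 in tip (median -0.10) against -2.40, -2.65 and -1.76, a difference of 2.11 (SE 0.20, adjusted p = 3.23e-05). In 0 of the 37 genes did tip against stalk pass the test, and 4 genes missed the call against nonvascular retina, namely Pcna, Cdk1, Cenpe and Ccne2.

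Astrocytes form the template on which retinal vessels grow, and part of their marker list was higher in tip. Of 15 measured, 7 were higher and 0 lower, median 0.88. The list mean ran from 1.44 to 1.65 in tip and was 0.22, 0.21 and 1.16 on nonvascular replicates 1 to 3, so replicate 3 lay nearest to tip. The list median was 0.30 without nonvascular replicate 2 and 1.58 without replicate 3. Pdgfra, the receptor that marks retinal astrocytes and their precursors, ran from 2.77 to 3.40 in tip (median 3.06) against -1.18, -0.74 and 1.94, a difference of 3.07 (SE 0.56, adjusted p = 0.00252) and of 4.04 without replicate 3. Its second probe gave -0.05. Nfia, a glial transcription factor, ran from 2.49 to 2.70 in tip (median 2.52) against -0.24, -0.97 and 1.41, a difference of 2.50 (SE 0.40, adjusted p = 0.00104) and of 3.17 without replicate 3. Agt, angiotensinogen, ran from 2.43 to 3.23 in tip (median 2.84) against 0.53, 0.88 and 1.88. Its difference was 1.75 (SE 0.27, adjusted p = 0.000957) and 2.14 without replicate 3. Gja1, the main astrocyte connexin, ran from -1.55 to -1.22 in tip against -3.41, -3.30 and -3.14, a difference of 1.90 (SE 0.09, adjusted p = 6.02e-07) in which replicate 3 did not stand apart.

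The probes of the defining astrocyte genes did not follow. Gfap, the intermediate filament of astrocytes, ran from -0.04 to 0.35 in tip (median 0.05) against -0.08, -0.06 and 0.05, a difference of 0.11 (SE 0.08, adjusted p = 0.394) with overlapping groups. Pax2, a transcription factor of retinal astrocytes, ran from -0.29 to 0.04 in tip (median -0.19) against -0.17, -0.18 and -0.20, a difference of 0.04 (SE 0.07, adjusted p = 0.784), also with overlapping groups. The Gfap and Pax2 probes read near the reference in both groups, and such probes can hide a change. Aqp4, a water channel of astrocyte and Müller endfeet, differed by -0.11 and did not pass the test. Part of the astrocyte list moved with the vessel genes, and its part in the vessel results was not tested.

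For Müller glia, which span the retina, 6 of 16 genes were higher and 4 lower, beside 14.7% and 19.5% of all genes. The median of -0.02 became 0.05 with the sample channel alone and 0.04 without nonvascular replicate 3. The higher count was 3 without nonvascular replicate 1 and 3 without replicate 2. Vim, vimentin, ran from -1.59 to -0.48 in tip (median -0.70) against -3.92, -4.34 and -2.86. Its difference was 2.92 (SE 0.33, adjusted p = 0.000109) and 3.34 without nonvascular replicate 3. The Vim probe was saturated on 5 of the 6 tip arrays, so its tip values are near a ceiling and the difference is not exact. Rlbp1, a carrier of visual retinoids in Müller glia and pigment epithelium, ran from 3.51 to 4.22 in tip (median 4.07) against 1.97, 1.36 and 3.83, a difference of 1.55 (SE 0.45, adjusted p = 0.0284). Replicate 3 lay inside the tip range for Rlbp1, and the difference without it was 2.27 (adjusted p = 0.00011). The Rlbp1 call was lost without nonvascular replicate 1 or 2 (adjusted p = 0.119 and 0.132) and without tip replicate 2, 3 or 5. Clu, the chaperone clusterin, went the other way, -2.12 to -1.39 in tip (median -1.74) against 0.60, 0.77 and -0.09, a difference of -2.19 (SE 0.21, adjusted p = 3.9e-05). Gpr37, an orphan receptor, was lower as well, a difference of -1.99 (SE 0.10, adjusted p = 1.09e-06), with 0.08 on a second probe that was at background in tip. The other lower members were Apoe (-0.78), a lipid carrier, and Crym (-1.62), a binder of thyroid hormone.

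Of 28 progenitor and neurogenic genes measured, 4 were higher, a share near the 14.7% of all genes, and 11 lower, median -0.23. Without nonvascular replicate 3 the counts were 8 and 7, without replicate 1 they were 2 and 6, and without replicate 2 they were 2 and 13. The higher count was 2 without tip replicate 2 or 3, and the lower count 7 without tip replicate 4 or 5. The higher members were Lhx2 (1.26), Nr2e1 (1.69), Btg2 (0.82) and Mfng. Neurod1, a factor of photoreceptor and amacrine precursors, ran from 0.45 to 1.28 in tip (median 0.80) against 3.41, 3.21 and 3.57, a difference of -2.56 (SE 0.17, adjusted p = 3.77e-06). Dll1, the Notch ligand of differentiating neurons, ran from 0.12 to 0.22 in tip (median 0.16) against 0.99, 0.72 and 1.05, a difference of -0.75 (SE 0.07, adjusted p = 4.04e-05). Pax6, an eye field factor kept in amacrine and ganglion cells, ran from -0.20 to 0.02 in tip (median -0.15) against 0.72, 0.64 and 0.44, a difference of -0.73 (SE 0.07, adjusted p = 5.22e-05), with -0.02 on a second probe.

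**Figure D4:**
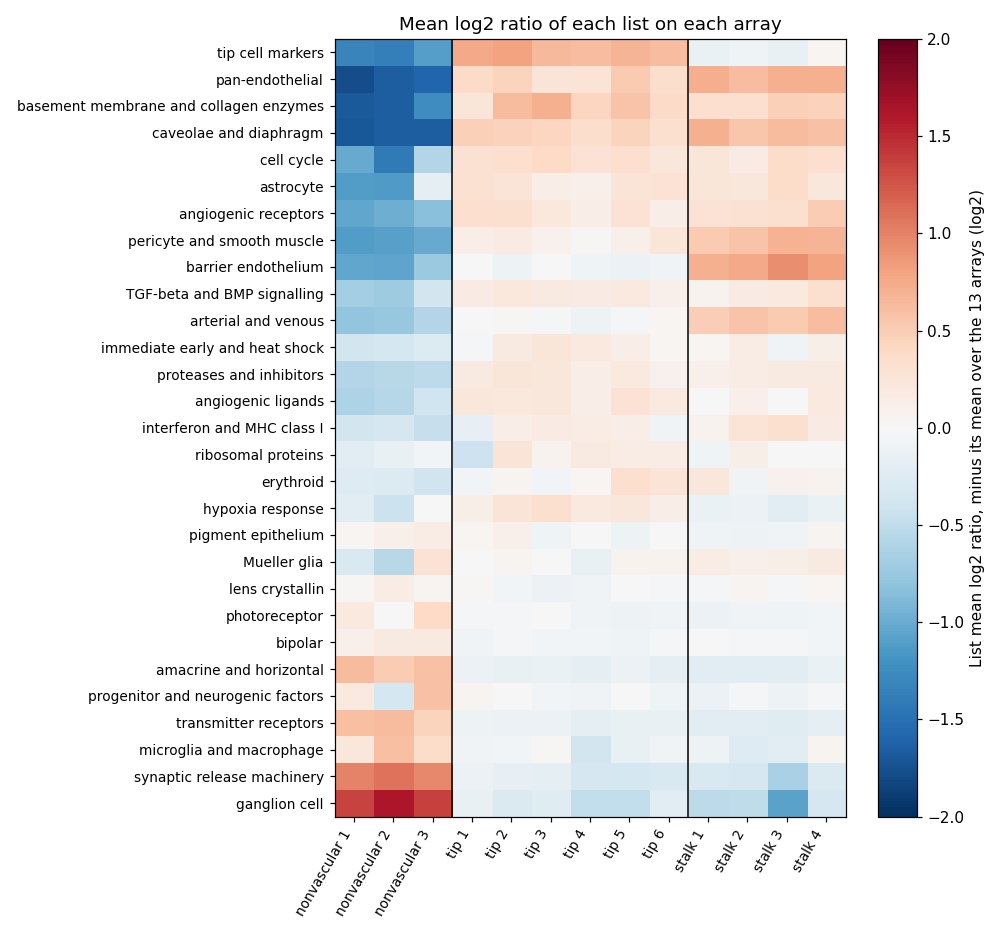
Mean log2 ratio of each list on each of the 13 arrays, shown as its distance from the list's mean over all 13 arrays (colour, log2 units). Nonvascular replicate 3 has higher astrocyte, Müller glia and progenitor means than replicates 1 and 2, and every tip and stalk array lies below every nonvascular array in the ganglion cell, amacrine, synaptic release and transmitter receptor means.

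Of 24 ganglion cell genes, 19 were lower and 0 higher, and the median of -2.19 was the lowest of the 29 lists. The list mean ran from 0.55 to 0.89 in tip and was 2.41, 2.67 and 2.41 in nonvascular retina, so the tip arrays lay well below the nonvascular arrays. Sncg, gamma-synuclein, a protein of ganglion cell bodies and axons, ran from 1.86 to 2.20 in tip (median 2.01) against 4.50, 4.78 and 4.83, a difference of -2.69 (SE 0.10, adjusted p = 2.21e-07). Gap43, a growth cone protein, ran from -0.16 to 0.27 in tip (median 0.11) against 3.23, 2.97 and 2.84, a difference of -2.94 (SE 0.12, adjusted p = 4e-07), and was well above background on 4 of the 6 tip arrays. Nrn1, neuritin, differed by -2.06 (SE 0.11, adjusted p = 1.19e-06). Pou4f2, the ganglion cell determinant also called Brn3b, ran from -0.33 to -0.03 in tip (median -0.17) against 0.09, 0.05 and 0.01, and its difference of -0.22 (SE 0.08, adjusted p = 0.057) missed the threshold. A second Pou4f2 probe gave 0.07, and both probes read near the reference in both groups.

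Amacrine and horizontal cell genes were lower for 12 of 24 and higher for 1, with a median of -0.16. Slc32a1, the transporter that loads GABA and glycine into vesicles, ran from 0.19 to 1.30 in tip (median 0.73) against 4.33, 4.15 and 4.34. Its means were 0.73 ± 0.43 (SD, n = 6) in tip and 4.27 ± 0.11 (SD, n = 3) in nonvascular retina, a difference of -3.54 (SE 0.22, adjusted p = 2.92e-06), or 11.6-fold lower. Meis2, a homeobox factor of amacrine cells, ran from -1.36 to -0.71 in tip (median -1.01) against 1.77, 1.50 and 1.55, a difference of -2.62 (SE 0.13, adjusted p = 6.54e-07), with -1.99 on a second probe. Gad1, which makes GABA, ran from 0.27 to 0.45 in tip (median 0.38) against 2.26, 1.83 and 1.86, a difference of -1.62 (SE 0.10, adjusted p = 2.05e-06), with -1.22 on a second probe. The groups did not overlap for any of the 3 genes. The member on the higher side was Slc6a9 (0.75), a glycine transporter that glia make too, and its call was lost without nonvascular replicate 1 or 2.

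Synaptic release genes were lower for 20 of 30 and higher for 0, median -0.99. Syt1, the calcium sensor of vesicle fusion, ran from 0.90 to 2.18 in tip (median 1.73) against 5.00, 5.38 and 5.26, a difference of -3.58 (SE 0.26, adjusted p = 7.3e-06). Its other probes gave -3.31, -2.22, -0.12 and -0.09. Synpr, synaptoporin, ran from 0.96 to 1.96 in tip (median 1.32) against 5.07, 5.14 and 4.67, a difference of -3.57 (SE 0.19, adjusted p = 1.29e-06). Snap25, a SNARE protein, ran from 1.95 to 3.12 in tip (median 2.45) against 4.94, 5.37 and 5.38, a difference of -2.73 (SE 0.26, adjusted p = 3.74e-05), with -2.93 and -0.20 on other probes. Dnm1, the dynamin of synaptic vesicle recycling, differed by -1.98 (SE 0.10, adjusted p = 1.08e-06). Complexins of ribbon synapses, Cplx3 and Cplx4, did not pass the test (0.12 and 0.12).

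Transmitter receptor genes were lower for 17 of 28 and higher for 0, median -0.55. Gria2, an AMPA receptor subunit, ran from 0.59 to 1.33 in tip (median 0.92) against 4.07, 4.11 and 3.65, a difference of -3.01 (SE 0.19, adjusted p = 2.92e-06). Gabrb2, a subunit of GABA-A receptors, ran from 0.04 to 0.21 in tip (median 0.11) against 2.46, 2.19 and 1.64, a difference of -1.98 (SE 0.15, adjusted p = 7.66e-06), with -0.11 on a second probe. Chrna4, a nicotinic receptor subunit, ran from 0.43 to 0.89 in tip (median 0.49) against 2.31, 2.44 and 2.26, a difference of -1.78 (SE 0.10, adjusted p = 1.89e-06), with -0.08 on a second probe.

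The 12 largest differences on the lower side were all of genes known from neurons. Pcdha6, a clustered protocadherin of neuronal surfaces, had a probe at 0.15 to 1.37 in tip (median 0.85) against 4.63, 4.79 and 4.37, a difference of -3.77 (SE 0.22, adjusted p = 1.88e-06). Its brightest probe differed by -0.28, which turned to 0.24 with the sample channel alone, and because the protocadherin alpha genes share their last exons, the assignment to Pcdha6 is uncertain. The RNA-binding proteins Elavl2 and Celf3 differed by -3.68 (SE 0.32, adjusted p = 2e-05) and -3.64 (SE 0.24, adjusted p = 3.54e-06), and a second Elavl2 probe gave -0.53. The microtubule protein Mapt (tau) ran from 0.21 to 1.05 in tip (median 0.53) against 4.12, 4.34 and 3.94, a difference of -3.55 (SE 0.19, adjusted p = 1.16e-06), and the intermediate filament Ina from 0.86 to 1.50 in tip (median 1.23) against 4.78, 4.77 and 4.48, a difference of -3.46 (SE 0.17, adjusted p = 6.54e-07). Syt13, Lrrn3, Ndrg4 and Olfm1 differed by -3.49, -3.49, -3.38 and -3.37. Second probes of Syt13, Lrrn3 and Ndrg4 gave -0.06, -0.37 and 0.04. In none of the 12 did tip differ from stalk by the test over all 13 arrays.

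Of 38 photoreceptor genes, 7 were lower, 1 higher and 30 not called, a lower share near the 19.5% of all genes, with a median of -0.07 that became 0.03 with the sample channel alone. The lower count was 3 without nonvascular replicate 3, 4 without nonvascular replicate 1 and 10 without nonvascular replicate 2. It was 4 without any 1 of tip replicates 1, 2, 4, 5 and 6, and 10 with all 13 arrays in the fit. The higher member was Cngb1 (0.38), a rod channel subunit, and the higher count was 0 without any 1 of nonvascular replicates 1 and 2 and tip replicates 1, 4 and 5. Rxrg, a retinoid receptor of cones and ganglion cells, ran from 0.38 to 1.74 in tip (median 1.07) against 3.33, 3.98 and 3.70, a difference of -2.66 (SE 0.27, adjusted p = 5.52e-05). Rom1, an outer segment protein, ran from 0.59 to 1.28 in tip (median 0.77) against 2.07, 1.95 and 2.75, a difference of -1.38 (SE 0.21, adjusted p = 0.000708). Its partner Prph2 ran from -0.08 to 0.16 in tip (median 0.01) against 0.70, 0.29 and 1.48, a difference of -0.81 (SE 0.21, adjusted p = 0.0154), in which replicate 3 was highest and replicate 2 lowest. It was -0.48 without replicate 3 and -1.08 without replicate 2. Crx, the cone-rod homeobox gene, differed by 0.03 (SE 0.05, adjusted p = 0.717) on a probe above background on only 3 of the 6 tip and 2 of the 3 nonvascular arrays. Rcvrn, recoverin, ran from 0.06 to 0.27 in tip (median 0.16) against 0.29, 0.37 and 1.19, a difference of -0.47 (SE 0.17, adjusted p = 0.076), and neither gene passed the test. The Rcvrn difference was -0.18 (adjusted p = 0.103) without replicate 3 and -0.63, which passed (adjusted p = 0.0361), without replicate 1.

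Bipolar genes were lower for 6 of 13 and higher for 0, median -0.09, which was 0.08 with the sample channel alone. Gng13, a G protein subunit of ON bipolar cells, ran from -0.18 to 0.00 in tip (median -0.11) against 0.66, 1.18 and 0.82, a difference of -0.99 (SE 0.10, adjusted p = 5.56e-05). Grik1 and Car8 differed by -0.51 (SE 0.11) and -0.42 (SE 0.06), and on the tip arrays their probes were above background on only 3 and 4 of 6. Pigment epithelium and lens genes served as markers of neighbouring tissue: 0 of 11 and 0 of 16 were higher in tip, and 1 (Dct, -0.93) and 1 (Bfsp1, -0.56, above background on 3 of the 6 tip arrays) lower. The pigment epithelium counts were 2 lower without nonvascular replicate 1 or tip replicate 1 and 1 higher without tip replicate 5, and the lens count was 2 lower without nonvascular replicate 3.

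Of 24 microglia and macrophage genes measured, 12 were lower in tip, 1 higher and 11 not called, median -0.61, and the list mean ran from -0.17 to 0.23 in tip against 0.43, 0.80 and 0.57. P2ry12, a purinergic receptor of resting microglia, ran from 1.38 to 2.45 in tip (median 2.09) against 3.34, 3.63 and 3.50, a difference of -1.45 (SE 0.20, adjusted p = 0.000478). C1qa, a chain of complement C1q, ran from 0.15 to 0.67 in tip (median 0.27) against 1.40, 1.86 and 1.43, a difference of -1.22 (SE 0.14, adjusted p = 0.000121). Tyrobp, an adaptor of microglial receptors, ran from 0.27 to 0.91 in tip (median 0.71) against 1.40, 1.88 and 1.74, a difference of -1.0 (SE 0.14, adjusted p = 0.000453). Csf1r, the receptor microglia need to survive, ran from 0.20 to 1.08 in tip (median 0.72) against 1.27, 1.67 and 1.55, a difference of -0.81 (SE 0.18, adjusted p = 0.00747), with 0.06 and -0.02 on other probes. The member on the higher side was Pf4 (1.50), a chemokine of platelets, megakaryocytes and some macrophages.

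Most red cell genes were not called. Of 11 erythroid genes, 3 were higher and 0 lower, beside 14.7% and 19.5% of all genes, and the median was 0.08. The higher count was 2 without any 1 nonvascular array. Alas2, the first enzyme of haem synthesis in red cells, ran from 1.69 to 2.88 in tip (median 1.89) against 0.86, 0.78 and 0.17, a difference of 1.45 (SE 0.26, adjusted p = 0.00248). Hba-a1, an alpha-globin, differed by 1.23 (SE 0.22, adjusted p = 0.00229), and Hbb-y, an embryonic beta-globin, by 0.58 (SE 0.19, adjusted p = 0.0478). The Hbb-y call was lost without any 1 nonvascular array and without tip replicate 1, 2, 4 or 6. Globin paralogs are close in sequence, so these probes may share signal.

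**Figure D5:**
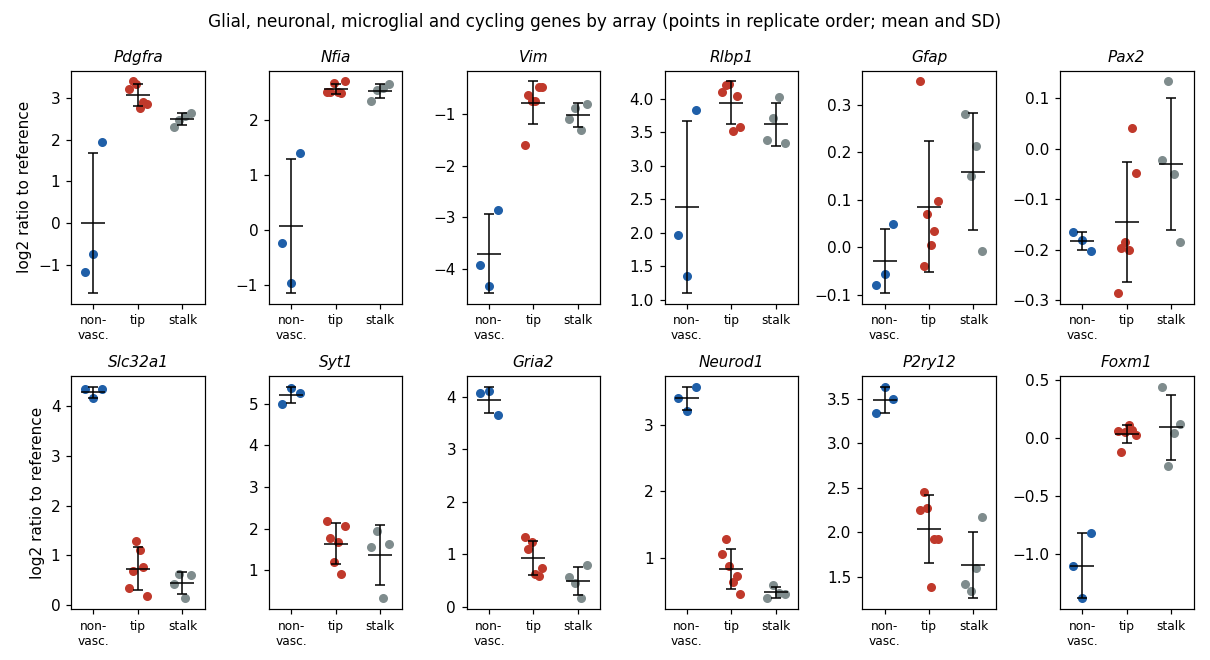
Log2 ratio to the reference on every array for 12 glial, neuronal, microglial and cell cycle genes, with the group mean and SD (3 nonvascular, 6 tip, 4 stalk arrays; vertical scales differ between panels). Nonvascular replicate 3, the right-hand point of its group, lies nearer to tip than its partners for Pdgfra, Nfia and Rlbp1. Of these, it reaches the tip range only for Rlbp1. For the neuronal genes Slc32a1, Syt1 and Gria2 all nonvascular points lie far from tip.

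Genes that answer low oxygen did not move as a block. Of 24 measured, 9 were higher and 4 lower, beside 14.7% and 19.5% of all genes. The median of 0.07 turned to -0.11 with median centring. The list mean ran from -1.51 to -1.31 in tip and from -2.05 to -1.64 on the nonvascular arrays. On the stalk arrays the list mean was -1.83 to -1.74, so every tip array had a higher mean than every other array. Vegfa and Adm, described above, and the glucose transporter gene Slc2a1 (2.79) had the largest differences. Against stalk, 5 of the 24 were higher in tip and 0 lower, namely Adm (1.78), P4ha1 (0.93), Tpi1 (0.89), Pgk1 (0.73) and Hk2 (0.59). P4ha2, a collagen prolyl hydroxylase, ran from -2.17 to -1.78 in tip (median -2.06) against -3.70, -3.35 and -3.31, a difference of 1.43 (SE 0.11, adjusted p = 1.08e-05). Glycolytic genes of the list were mostly uncalled: Aldoa, Tpi1, Eno1 and Pgk1 differed by 0.33, -0.04, -0.16 and -0.34, the Aldoa probe being saturated on 3 tip arrays. The lower members, a share near that of all genes, were Bnip3 (-1.25), Ndrg1 (-1.26), Ddit4 (-0.68) and Pfkfb4 (-0.31).

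Interferon and MHC class I genes were higher for 7 of 21 and lower for 2, median 0.35. The higher count was 12 without tip replicate 1. The lower members were Ifitm1 (-0.35) and Ly6e (-0.78). Irf1, a transcription factor of interferon responses, ran from -1.36 to -0.78 in tip (median -1.22) against -3.62, -3.47 and -3.18, a difference of 2.26 (SE 0.13, adjusted p = 2.12e-06), with 0.13 on a second probe. Ifitm3, an interferon-induced membrane protein, ran from -1.07 to -0.62 in tip (median -0.94) against -2.55, -2.45 and -2.47, a difference of 1.60 (SE 0.09, adjusted p = 1.48e-06). B2m, the light chain of MHC class I, ran from -1.57 to -1.01 in tip (median -1.27) against -3.05, -2.70 and -2.19, a difference of 1.36 (SE 0.17, adjusted p = 0.000254), with 1.38 on a second probe.

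Immediate early and heat shock genes, which also respond to tissue handling, were higher for 15 of 24 and lower for 4, median 0.44. With median centring the higher count was 9. Ier2 ran from -1.25 to -0.65 in tip (median -0.89) against -3.28, -3.56 and -2.89, a difference of 2.34 (SE 0.16, adjusted p = 3.91e-06), with 0.48 on a second probe. Ccn2, a matricellular protein induced by TGF-beta and by YAP, ran from -1.21 to -0.81 in tip (median -0.94) against -2.84, -3.42 and -2.73, a difference of 2.02 (SE 0.14, adjusted p = 6.1e-06). Hspb1, a small heat shock protein, was lower, at -1.54 to -1.29 (median -1.36) against 0.09, 0.13 and -0.12, a difference of -1.42 (SE 0.07, adjusted p = 1.06e-06). The other lower members were Hspa1a (-1.40), Hsp90aa1 (-0.73) and Klf2 (-0.94), a factor induced by flow. Whether handling differed between the groups was not tested.

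Ribosomal protein genes served as a list with no known place in sprouting. Of 39 measured, 1 (Rps25, 0.48) was higher and 0 lower, median 0.33, and 16 were higher without tip replicate 1, 5 without nonvascular replicate 3 and 2 without tip replicate 5 or nonvascular replicate 2. Their list mean ran from -1.51 to -0.84 in tip against -1.32, -1.25 and -1.15.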

How the data were processed

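Each array is an Agilent 44k mouse design scanned in 2 colours and read with Agilent Feature Extraction 8.5.1.1, per the submitters' processing notes. The deposited scanner files give, per the file headers, the mean intensity of each spot, the median intensity of its local background, and a log10 ratio of red over green that the authors' software had background-subtracted and dye-normalized. Red (Cy5) is the sample and green (Cy3) the reference, per the labels, and no dye was swapped. The authors' deposited value table holds linear ratios whose logs lay within 0.001 (log10) of the scanner files' ratios for at least 99.9% of probes on each array, so its scale and direction are known. Its array medians were 1.06 to 1.15.

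From the intensities, background was corrected with normexp (offset 50) and log2 ratios were normalized within each array by loess, control spots having weight 0, with limma 3.58.1 in R 4.3.3. Spots flagged as outliers were left out and spots of a probe averaged. Of 43790 spots, 41534 were not controls and fell on 41174 probes. The 9 arrays entered limma's linear model with moderated variances, and Benjamini-Hochberg adjustment ran over all probes. Tip minus stalk values come from a fit over all 13 arrays. Every adjusted p in the text is limma's. The script was tested on simulated data. Probes were named through RefSeq accessions and descriptions (22064 by their own accession, 142 by another, 1099 by a symbol in the description, 17869 not named), and a gene is its brightest probe. The genome build of the array design is not given in the sources used here. The number of arrays limits the precision.

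The named genes are a fixed set by name (of which Mki67 had no probe that could be named), the 12 largest called differences in each direction, and, where a list had 3 or more called members, the 3 of smallest p. The other genes named in the text, among them each gene that is given with no SE outside the 12 largest, were picked after their values were seen. The gene lists and the comparison were chosen with earlier results of these data known. Some of these genes are not reported here. Lists overlap, and a gene in several counts in each. Alternatives were no background subtraction, median centring, the deposited ratios, the sample channel alone, filters, probe averaging, the replicate number as a block, array brightness as a covariate, another variance prior, and leaving out each array.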

Additional observations from a re-analysis of the deposited data

Results flagged for a closer look

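In 6 of the 111 groups of tip values searched, 1 tip array lay far from the other 5, and chance alone flags about 1 group in 20. Cd34 was low on tip replicate 1 at a log2 ratio of 2.19, against 2.67 to 2.86 on the other tip arrays. Vim was low on the same array, at -1.59 against -0.76 to -0.48 (a probe saturated on 5 of the 6 tip arrays), and Gfap was high there, at 0.35 against -0.04 to 0.10. Flt1 was low on tip replicate 6, at 1.91 against 2.19 to 2.34. On tip replicate 5, which was scanned a day later than the rest, Chrna4 was high at 0.89 against 0.43 to 0.60, and Irf1 was high at -0.78 against -1.36 to -1.15. In 5 of the 6 genes, all but Gfap, the tip values with and without that array stayed on 1 side of all 3 nonvascular values.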

How the results depend on the processing

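With median centring, 2177 probes were higher in tip and 5700 lower at any size, against 4188 and 6201 with loess. By 2-fold or more, 1102 were higher and 2851 lower with median centring, against 1225 and 1800 with loess. The number lower by 2-fold or more was 2765 with the Feature Extraction log ratios and 2795 with the deposited ratios. With all probes of a gene averaged, the counts are of genes: 2605 higher, 3385 lower, 672 higher by 2-fold or more and 843 lower by 2-fold or more. Leaving out 1 array at a time, probes higher ran from 3043 to 4496 and probes lower from 4908 to 6070. With the replicate block, 3101 probes were higher and 4038 lower. The labels tie tip and nonvascular replicates by number only. Deviations from the group means had r of -0.06, -0.02 and -0.14 between same-numbered arrays, and ran from -0.173 to 0.188 between others. These values cannot settle whether replicates share animals, because each deviation is taken from the mean of few arrays. Under the block, the higher counts were 11 for pericyte, 4 for astrocyte, 3 for Müller glia, 9 for immediate early and 1 for progenitor genes. The lower counts under it were 7 for microglia, 7 for progenitor, 2 for photoreceptor, 2 for bipolar and 2 for hypoxia genes. Ribosomal genes counted as higher were 9 with the sample channel alone. Bipolar genes counted as lower were 2 with median centring and 3 with the sample channel alone. Differences that turned sign belonged to Crx, Pax2 and Tek, which were not called, and to the brightest Pcdha6 probe, which was. Crx was -0.010 without background subtraction, -0.66 with Feature Extraction log ratios, -0.29 with deposited ratios and -0.11 with the sample channel alone. Pax2 was -0.039 under the replicate block and ran from -0.00042 to 0.065 with 1 array left out. The brightest Pcdha6 probe turned from -0.28 to 0.24 (adjusted p = 0.554) with the sample channel alone. Tek was 0.20 with median centring, 0.17 with the sample channel alone, 0.058 under the replicate block and 0.0039 with array brightness in the model. Where a value moved, the cause was not tested. Kdr, Pecam1, Rgs5, Rlbp1 and Hbb-y lost their call under further settings, and Csf1r, Grik1, Prph2 and Car8 under 1 or 2 of them. Pou4f2 and Rcvrn gained one under some. Precision is limited by 3 nonvascular arrays, and probes that read near the reference in both groups can hide a change that another probe shows.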

Other observations

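The 4 genes below were picked after their values were seen and carry no hypothesis. Calcrl, the receptor that binds adrenomedullin with a Ramp partner, was measured at -0.22 to 0.31 on the tip arrays against -1.19, -0.85 and -1.25, a difference of 1.06 (SE 0.13, adjusted p = 0.000182) in limma's test, and its tip minus stalk value was -1.33 (adjusted p = 0.000107). Ramp2, the partner typical of endothelium, differed by 1.64 (SE 0.14, adjusted p = 1.69e-05), the opposite direction to Ramp1 and Ramp3. Among the Krüppel-like factors of endothelium, Klf4 was higher in tip, with a difference of 0.93 (SE 0.17, adjusted p = 0.00283), whereas Klf2 was lower, with -0.94 (SE 0.08, adjusted p = 1.99e-05). Klf2 ran from -3.73 to -3.47 in tip (median -3.60) against -2.60, -2.56 and -2.86. The groups did not overlap for Klf2 or for Klf4, which ran from -3.45 to -2.52 in tip (median -2.80) against -3.77, -3.67 and -3.86.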
